A study of Mus musculus with 6 samples.

Results

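Proteoglycan core proteins and the enzymes that build and sulfate their glycosaminoglycan chains were examined in the epithelium of mouse liver bile ducts (biliary epithelial cells). Members were chosen by gene symbol, covering glypicans, syndecans, the secreted cores Acan, Vcan, Bcan, Bgn, Dcn and Lum, and the families of chain-building enzymes, sulfotransferases and sulfate-donor synthases, with one glypican gene left out by that rule. The rule found 56 members among 25302 rows of the table. RNA sequencing compared 3 Control samples, of genotype Sox9fl/fl, with 3 Sox9cKO samples, of genotype Sox9fl/fl:AlbCre+/-. Sox9, which encodes a transcription factor, was thus floxed in both groups, and the Sox9cKO group also carried a Cre transgene named for the albumin promoter. The promoter is best known from hepatocytes and their embryonic precursors, so the biliary cells in which Sox9 was recombined are not given by the genotype. Age, sex and the way the cells were isolated are not given in the sources used here, nor is it said whether the samples came from separate animals, so p-values measure the spread between these samples. Values are normalized reads, that is, reads per gene after division by each sample's size factor, given in the order of replicates 1, 2 and 3, and differences are Sox9cKO minus Control on the scale log2(normalized reads + 1).

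A proteoglycan is a core protein that carries long sulfated sugar chains. The chains start at a serine with a short linker begun by a xylosyltransferase, and are extended as heparan sulfate by exostosins or as chondroitin sulfate by chondroitin synthases. Sulfotransferases then add sulfate from the donor PAPS, and the sulfate pattern decides which growth factors, chemokines and matrix proteins bind the chain. In epithelia, syndecans and glypicans hold heparan sulfate at the cell surface, and perlecan, agrin and collagen XVIII hold it in the basement membrane.

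Libraries held between 11883496 and 16191990 reads assigned to genes. Sox9 itself (ENSMUSG00000000567) had 6211, 6043 and 6293 normalized reads in Control and 3363, 3165 and 3340 in Sox9cKO. The Sox9 level followed the label in every library (log2 difference -0.91, SE 0.095, limma adjusted p 0.00501). Reads per gene do not separate the floxed exons from the rest of the transcript. The 16 biliary markers summed to between 190439 and 236788 in Control and between 178736 and 248550 in Sox9cKO, and none of the 16 was at 0 in any sample. Markers of other cells were also present: 12 endothelial markers summed to between 2838 and 63885 in Control and between 10482 and 65075 in Sox9cKO. The sums of 13 hepatocyte markers were 25043 to 38778 in Control and 48041 to 79354 in Sox9cKO. Of the 13, 4 (30.8%) passed the limma threshold, all of them higher in Sox9cKO, against 2.03% of all genes in this direction. Apob (means 2712 and 22111) carried most of the difference between the sums, and without Apob the summed groups overlapped. The sums of 14 stellate cell and fibroblast markers were 3633 to 4685 and 4901 to 6367, and those of 10 leukocyte and Kupffer cell markers were 1091 to 1248 and 1534 to 1852. Only Csf1r (means 761 and 1450) was higher in Sox9cKO among the 7 tested leukocyte markers, with 6 lower, so this sum does not stand for the list. For 5 mesothelial markers the sums were 934 to 964 and 1144 to 2159, where Msln (means 335 and 1408) carried the difference and 3 of the 5 markers were lower. Of the tested stellate cell and fibroblast markers, 7 were higher and 6 lower (median log2 difference 0.051). At 0 in some sample were the fibroblast marker Thy1 and the leukocyte marker Tyrobp.

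No member passed the threshold in the unpaired limma or edgeR comparison of the groups, and 4 passed in limma when replicates were paired. Of the 56 members, 40 reached a mean of 10 normalized reads and were tested, and 0 passed an adjusted p of 0.05 with limma, against 2.97% of the 17153 genes tested (2.03% higher and 0.939% lower in Sox9cKO). The count was also 0 with edgeR, against 2.86% of all genes (1.82% higher, 1.04% lower). At an unadjusted limma p under 0.05 there were 10 members, which is 25% of the tested members against 17.8% of all genes. When samples of the same replicate number were treated as pairs (the replicate block of limma), 4 members passed: the cell surface cores Sdc1 and Gpc6 and the chondroitin synthesis factor Chpf were higher, and the sulfotransferase Chst9 was lower. That is 10% of the tested members, against 8.05% of all genes in the same fit (5.06% higher, 2.99% lower). In edgeR with the block, Sdc1, Gpc6 and Chst9 passed, against 6.76% of all genes (3.87% higher, 2.89% lower). DESeq2, which had no block, called Sdc1, Gpc6, Ext1 and Chst9, against 7.08% of all genes (4.2% higher, 2.87% lower). Of the 40 tested members, 12 (30%) had groups that did not overlap, against 24.2% of all tested genes. The differences of the tested members lay between -1.53 and 1.45, with a median of 0.28 against 0.036 over all tested genes, and 30 of 40 were above 0 (75.0%, against 54.2% of all genes). Without Control replicate 3 the median was 0.11, and without Sox9cKO replicate 3 it was 0.44. For 21 of the 40 the 95% interval of the difference lay inside a doubling or halving in either direction. In bulk samples, fewer cells of a type and less RNA per cell cannot be told apart.

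**Figure D1:**
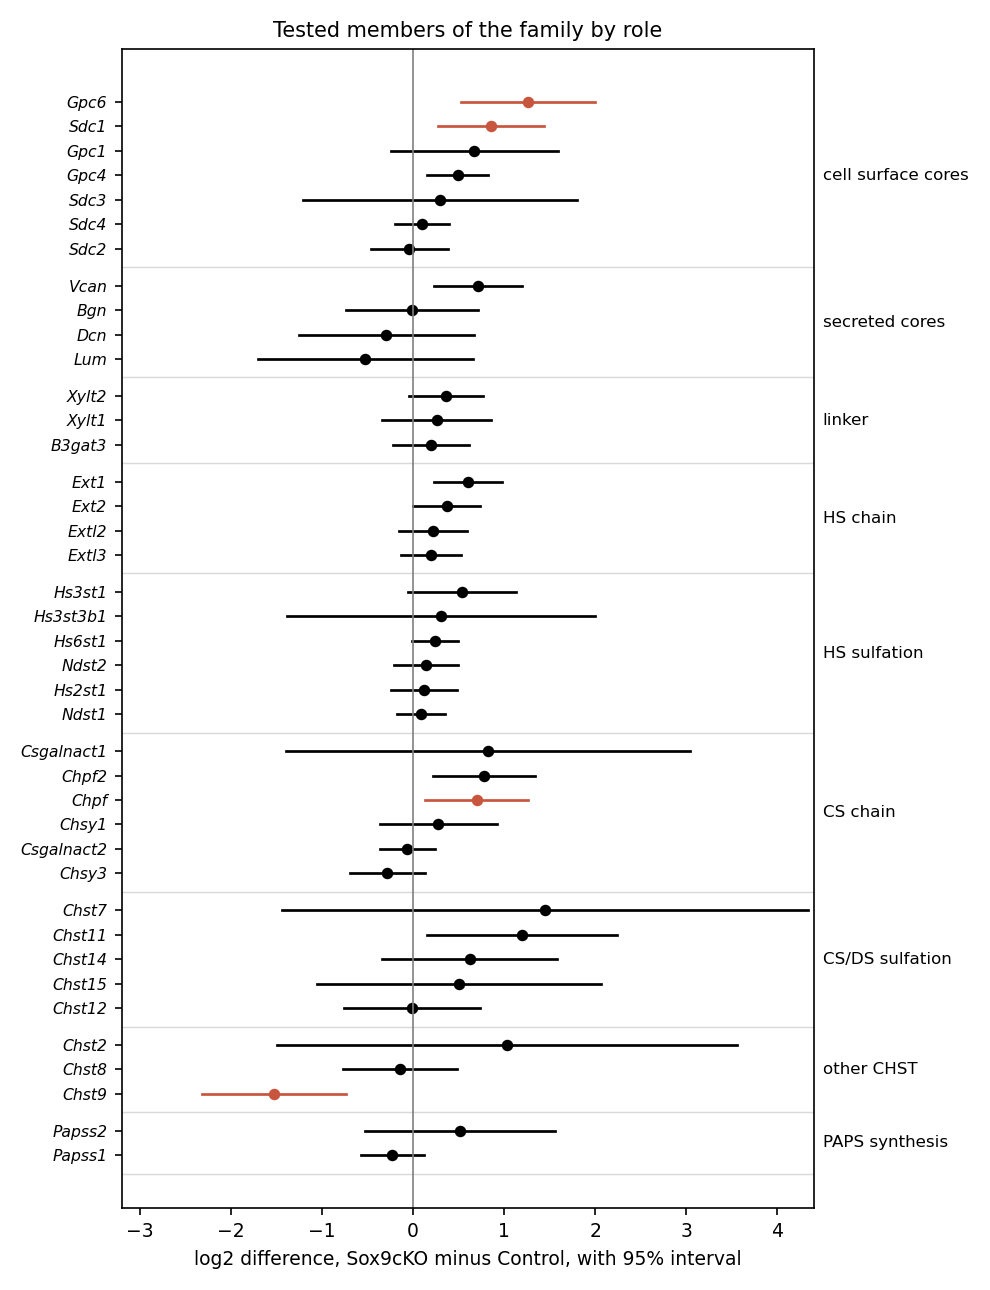
Log2 difference (Sox9cKO minus Control, x axis) of the 40 tested members, grouped by role (HS, heparan sulfate; CS, chondroitin sulfate; DS, dermatan sulfate; CHST, carbohydrate sulfotransferase). Points are limma estimates from 3 samples a group, lines their 95% intervals, and red marks the 4 members past the threshold with the replicate block: Gpc6, Sdc1 and Chpf to the right of 0 and Chst9 to the left.

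Levels of different genes were compared per kilobase of exon. By far the highest member in Control was Sdc4, a syndecan of focal adhesions, at 4120 ± 473 normalized reads per kilobase (SD, n = 3). The heparan sulfate sulfotransferase Hs3st1 followed at 1105 ± 260. Hs6st1 (435 ± 37.2) and Ndst1 (418 ± 31.3), which also sulfate heparan sulfate, came next and did not differ beyond their spread. Bgn, Sdc1 and Gpc4 formed a further cluster at 349 ± 54.6, 310 ± 61.2 and 308 ± 45.1 reads per kilobase. The most abundant chondroitin sulfotransferase, Chst15, reached 128 ± 97.2. These biliary samples thus held more transcript per kilobase of 3 heparan sulfate sulfotransferases than of any chondroitin sulfotransferase tested.

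Among the cell surface cores, 2 of 7 tested genes passed the threshold with the replicate block, and both were higher in Sox9cKO. That is 28.6% of a small group, against 5.06% of all genes called higher in the same fit. Sdc1 (ENSMUSG00000020592), the syndecan typical of epithelia, had 1390, 930 and 1225 normalized reads in Control and 2768, 1509 and 2247 in Sox9cKO. The groups did not overlap, as for 13.4% of all genes in this direction, and within each replicate number the Sox9cKO sample was the higher one. The means were 1182 ± 233 and 2175 ± 632 (SD, n = 3), a log2 difference of 0.86 (SE 0.25), with a limma adjusted p of 0.131, or 0.00617 with the replicate block. Gpc6 (ENSMUSG00000058571), a glypican anchored by a lipid in the outer membrane leaflet, had 63.9, 69.6 and 38.0 reads in Control and 184, 109 and 121 in Sox9cKO. Every Sox9cKO value was above every Control value, with a log2 difference of 1.26 (SE 0.31) and a limma adjusted p of 0.0901, or 0.0314 with the block. The hepatocyte marker sum was also higher in each Sox9cKO sample than in each Control sample, but this separation rested on Apob. Of the 13 markers, 11 were above their Control level, against 54.2% of all genes. The groups did not overlap for 5 of the 13, all higher in Sox9cKO, against 13.4% of all genes in this direction. The part of hepatocyte RNA in the differences of Sdc1, Gpc6 and the other members was not tested.

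Sdc4 (ENSMUSG00000017009), the most abundant core, had 11790, 9408 and 10286 reads in Control and 12119, 11104 and 10398 in Sox9cKO. Its groups overlapped, and the 95% interval of its log2 difference ran from -0.20 to 0.40. Gpc4, another glypican, had 939, 700 and 810 reads in Control and 1047, 1195 and 1176 in Sox9cKO. The Gpc4 groups did not overlap, but the gene passed in neither limma fit (log2 difference 0.49, SE 0.14, adjusted p 0.131, or 0.0821 with the block). Sdc2, the remaining syndecan with a narrow spread, had a log2 difference of -0.041 with an interval from -0.46 to 0.38. Gpc1 (0.67, from -0.25 to 1.59) and Sdc3 (0.29, from -1.21 to 1.80) had wide intervals in the unpaired fit. In both, the Sox9cKO sample was the higher one within all 3 replicate numbers, but neither passed with the block (limma adjusted p 0.0635 for Gpc1 and 0.269 for Sdc3). Of the exon bases of Gpc1, 18.9% are shared with Ankmy1 on the opposite strand.

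**Figure D2:**
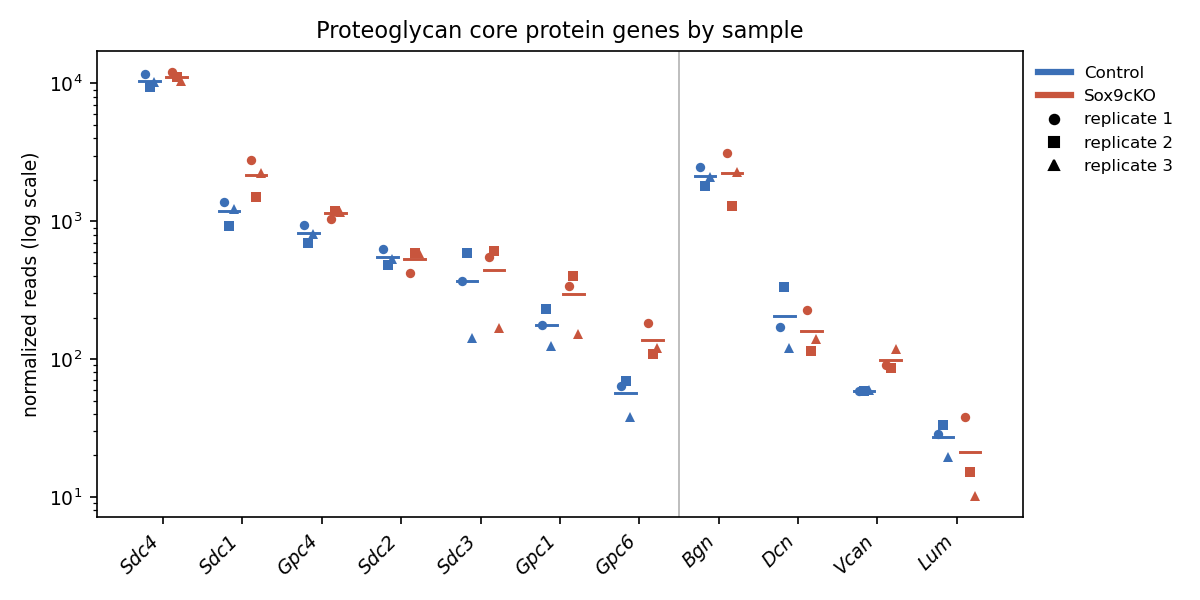
Normalized reads (log axis) of the 11 tested core protein genes in each sample, cell surface cores left of the grey line and secreted cores right of it, with Control in blue, Sox9cKO in red, marker shapes for replicates 1 to 3 and bars for group means. Sdc1, Gpc4, Gpc6 and Vcan have every Sox9cKO value above every Control value, while Sdc4 and Bgn overlap.

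Stretches upstream of 3 members are shown as examples: Sdc1, which had the lowest adjusted p of all members in the paired fit, Sdc4, the most abundant member, and Xylt2, the only tested member whose window held a Sox motif. RefSeq upstream windows of 250 bases on GRCm38.p6 were found for 41 of the 56 members, 49 windows in all. They were searched on both strands for ACAATG and ACAAAG, a pair of strings that share their first 4 letters and fit the core bound by Sox factors. A match was present in 4 of the 49 windows (8.16%) against 25.2% of 32851 windows in the whole table, and these windows belonged to Xylt2 and to Chst10, Chst3 and Gpc2, which were too low to test. In the sequences, capitals mark a match and the last base lies just before the annotated start.
Sdc1 upstream, chr12:8771146-8771395, plus strand: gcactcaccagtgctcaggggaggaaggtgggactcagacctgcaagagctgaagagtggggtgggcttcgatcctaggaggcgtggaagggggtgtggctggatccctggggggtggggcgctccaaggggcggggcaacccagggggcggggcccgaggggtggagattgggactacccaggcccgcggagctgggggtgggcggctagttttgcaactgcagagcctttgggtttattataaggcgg
Sdc4 upstream, chr2:164443189-164443438, minus strand: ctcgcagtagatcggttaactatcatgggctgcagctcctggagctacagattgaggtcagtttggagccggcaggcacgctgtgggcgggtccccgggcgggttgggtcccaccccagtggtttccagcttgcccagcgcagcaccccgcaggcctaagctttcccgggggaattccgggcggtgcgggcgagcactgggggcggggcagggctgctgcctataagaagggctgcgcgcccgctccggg
Xylt2 upstream, chr11:94677494-94677743, minus strand: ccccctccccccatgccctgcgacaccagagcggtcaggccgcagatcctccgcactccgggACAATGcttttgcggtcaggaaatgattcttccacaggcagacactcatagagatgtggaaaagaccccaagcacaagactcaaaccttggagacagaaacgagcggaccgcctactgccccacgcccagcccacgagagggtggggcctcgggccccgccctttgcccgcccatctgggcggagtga
The match in Xylt2 began 188 bases before the start. Sdc1 and Sdc4 held none of these letters in their windows, which describes the window alone.

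The secreted cores showed no common direction. Vcan (versican), a large chondroitin sulfate proteoglycan, had 58.8, 58.5 and 59.9 reads in Control and 90.5, 86.0 and 119 in Sox9cKO. Its groups did not overlap, but it passed in neither limma fit (log2 difference 0.71, SE 0.21, adjusted p 0.133, or 0.0839 with the block). Bgn (biglycan), a small leucine-rich proteoglycan, had 2474, 1809 and 2111 reads in Control and 3126, 1292 and 2290 in Sox9cKO. The Sox9cKO samples enclosed the whole Control range, and the log2 difference was -0.010 with an interval from -0.73 to 0.71. Dcn (decorin) and Lum (lumican), collagen-binding cores of stroma, had log2 differences of -0.29 (from -1.25 to 0.67) and -0.53 (from -1.71 to 0.65). Of 13 tested stellate cell and fibroblast markers, 0 passed the threshold in either limma fit, in edgeR or in DESeq2, and 7 of the 13 were higher and 6 lower. In the unpaired limma fit 0 of the 13 had an unadjusted p under 0.05. With the block, the unadjusted limma p was under 0.05 for Col1a1, Col1a2 and Hgf, which were higher, and for Lrat, which was lower. The part of these cells in the levels of the secreted cores was not tested.

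The 3 linker members and the 4 heparan sulfate polymerisation members tested all had a log2 difference above 0, but none passed in either limma fit. Ext1 (ENSMUSG00000061731), a subunit of the heparan sulfate polymerase, had 1833, 1565 and 1610 reads in Control and 2047, 2929 and 2714 in Sox9cKO. The groups did not overlap, and the means were 1669 ± 144 and 2563 ± 460 (SD, n = 3), a log2 difference of 0.61 (SE 0.16, limma adjusted p 0.104, or 0.0635 with the block). Ext1 passed without Sox9cKO replicate 1 (0.76, limma adjusted p 0.0445). Its partner Ext2 had 779, 627 and 544 reads in Control and 858, 870 and 772 in Sox9cKO, where 1 Sox9cKO sample fell below the highest Control sample (log2 difference 0.37, interval from 0.0034 to 0.74, adjusted p 0.277). Extl2 and Extl3, related transferases, differed by 0.22 and 0.19, and the groups of Extl2 did not overlap. The linker genes Xylt1, Xylt2 and B3gat3 differed by 0.26, 0.36 and 0.20, with adjusted p-values between 0.343 and 0.655. Of these linker genes, Xylt2 alone had groups that did not overlap, with 177, 174 and 149 reads in Control and 226, 240 and 180 in Sox9cKO.

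None of the 6 tested heparan sulfate sulfotransferases passed in either limma fit. Ndst1, the enzyme that replaces acetyl by sulfate early in chain modification, had 3228, 3738 and 3409 reads in Control and 3412, 3964 and 3617 in Sox9cKO. The interval of its log2 difference ran from -0.18 to 0.35. Hs6st1 had 2465, 2183 and 2584 reads in Control and 2873, 2867 and 2800 in Sox9cKO. Its groups did not overlap, yet the difference was small (0.24, SE 0.11, adjusted p 0.299). Hs2st1 and Ndst2 differed by 0.12 (from -0.25 to 0.48) and 0.14 (from -0.21 to 0.49). Hs3st1, which is known for completing the antithrombin-binding site of heparin, had 2568, 1839 and 2985 reads in Control and 4627, 2604 and 3559 in Sox9cKO. The groups overlapped, but Sox9cKO was higher within all 3 replicate numbers (log2 difference 0.53, SE 0.25, adjusted p 0.329, or 0.0572 with the block).

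For chondroitin sulfate, the polymerising factors Chpf and Chpf2 had the clearest separation. Chpf (ENSMUSG00000032997) had 133, 99.3 and 95.6 reads in Control and 235, 155 and 149 in Sox9cKO. Its groups did not overlap, and its log2 difference of 0.70 (SE 0.24) had a limma adjusted p of 0.192, or 0.0471 with the block, while edgeR with the block gave 0.0624. Chpf2 had 125, 184 and 118 reads in Control and 296, 238 and 195 in Sox9cKO, a log2 difference of 0.78 (SE 0.24) that passed in neither limma fit (adjusted p 0.152, or 0.063 with the block). In GENCODE, 44.1% of the exon bases of Chpf2 are shared with Smarcd3 on the opposite strand, and whether the counting used the strand is not given in the sources used here. The synthases Chsy1 and Chsy3 differed by 0.28 and -0.28, and Csgalnact2, which starts the chain, by -0.062 with an interval from -0.37 to 0.24.

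Among the sulfotransferases that act on chondroitin and dermatan sulfate, Chst11 had 11.8, 17.6 and 21.9 reads in Control and 69.6, 35.0 and 24.9 in Sox9cKO. The groups lay just apart, and the gene did not pass (log2 difference 1.20, SE 0.44, adjusted p 0.218, or 0.162 with the block). Chst12, which has the same substrate, differed by -0.011 (from -0.76 to 0.74), and the dermatan sulfotransferase Chst14 by 0.62 (from -0.34 to 1.58).

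Chst9 (ENSMUSG00000047161) was the only tested member that was lower in every Sox9cKO sample than in every Control sample, a pattern found for 10.8% of all genes. It encodes a sulfotransferase for terminal N-acetylgalactosamine, as on certain hormone glycans. It had 68.9, 77.0 and 97.9 reads in Control and 33.8, 17.0 and 35.1 in Sox9cKO. The means were 81.3 ± 15.0 and 28.6 ± 10.1 (SD, n = 3), a log2 difference of -1.53 (SE 0.34), with a limma adjusted p of 0.0652, or 0.0267 with the block. Chst8, its close relative with the same substrate, had 468, 353 and 603 reads in Control and 438, 308 and 546 in Sox9cKO. Its groups overlapped broadly (log2 difference -0.14, from -0.77 to 0.48). Papss1 and Papss2, which make the sulfate donor, differed by -0.23 (from -0.57 to 0.12) and 0.52 (from -0.53 to 1.56), and the higher Papss2 mean came from Sox9cKO replicate 1 with 153 reads, against 52.0 and 56.6 in the other Sox9cKO samples.

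A set of 6 members varied more between replicates than between groups: Chst15, Hs3st3b1, Sdc3, Chst2, Csgalnact1 and Chst7. In each, the highest Control sample had over 3 times the reads of the lowest, which holds for 8.83% of all tested genes. Chst15, which adds a further sulfate to chondroitin, had 683, 1588 and 312 reads in Control and 1329, 1602 and 453 in Sox9cKO. Replicate 3 was the lowest and replicate 2 the highest in both groups, and 17.9% of the exon bases of Chst15 lie antisense to another gene model. Csgalnact1, a chain-starting transferase, had 40.3, 124 and 10.4 reads in Control and 108, 120 and 23.8 in Sox9cKO. Chst2, a sulfotransferase known from L-selectin ligands of endothelium, had 66.4, 190 and 12.7 reads in Control and 210, 216 and 31.7 in Sox9cKO. Hs3st3b1, which acts late on heparan sulfate, had 251, 546 and 107 reads in Control and 431, 544 and 119 in Sox9cKO.

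All 6 followed the order of the summed endothelial markers in both groups, which were 19328, 63885 and 2838 in Control and 49790, 65075 and 10482 in Sox9cKO. Including 4 with a narrower spread (Gpc1, Chst14, Chst12 and Chsy1), 10 of the 40 tested members had this order, against 8.12% of all tested genes. All 12 endothelial markers had a Control range above 3 times, and 0 of them passed the threshold in either limma fit, in edgeR or in DESeq2. In the unpaired limma fit 0 of the 12 had an unadjusted p under 0.05. All 12 were higher in Sox9cKO (median log2 difference 1.09), against 54.2% of all genes. With the block, their unadjusted limma p lay between 0.00867 and 0.0415. Sdc3 had 367, 592 and 142 reads in Control and 554, 610 and 168 in Sox9cKO, and Chst7 had 25.2, 71.5 and 1.15 in Control and 61.7, 68.0 and 18.1 in Sox9cKO. None of the 6 passed in either limma fit (adjusted p between 0.606 and 0.874, or between 0.0897 and 0.338 with the block). The part of endothelial RNA in the levels of these members was not tested.

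**Figure D3:**
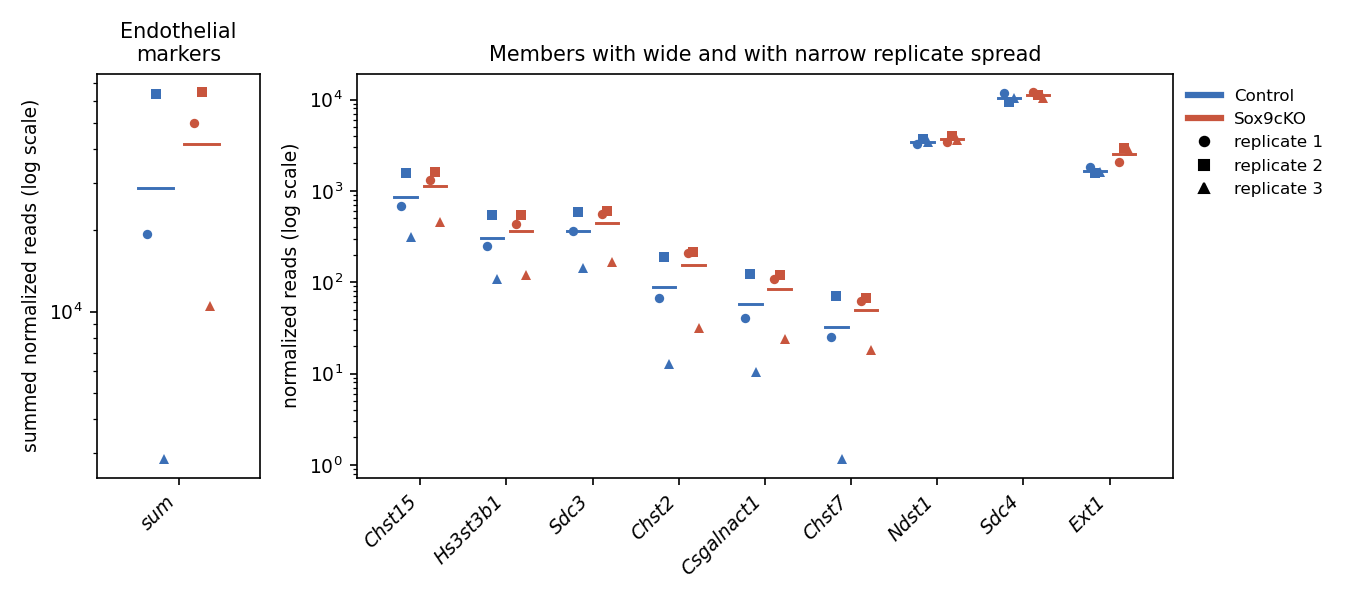
Left, summed normalized reads of 12 endothelial markers in each sample. Right, normalized reads of 6 members with a wide spread between replicates (Chst15 to Chst7) and of Ndst1, Sdc4 and Ext1 for comparison, both on log axes with Control in blue, Sox9cKO in red, marker shapes for replicates 1 to 3 and bars for group means. In both groups replicate 3 (triangle) is lowest for the markers and the 6 members, and Ndst1, Sdc4 and Ext1 lack this order.

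The 16 members not tested had a mean below 10 normalized reads. These were Gpc2 and Gpc5, Acan and Bcan, B3gat2, Extl1, Ndst3, Ndst4, Hs3st3a1, Hs3st4, Hs3st6, Hs6st2, Chst1, Chst3, Chst4 and Chst10. Acan (aggrecan), the cartilage proteoglycan and a well-known Sox9 target there, had 16, 12 and 7 reads in Control and 0, 4 and 0 in Sox9cKO. Hs6st2 had 25, 12 and 8 reads in Control and 3, 4 and 2 in Sox9cKO. Gpc2 had 4, 5 and 3 reads in Control and 13, 10 and 8 in Sox9cKO, but 55.6% of its exon bases are shared with another annotated gene on the same strand. Including Chst3, Ndst3 and Ndst4, which were lower in each Sox9cKO sample, the groups of 6 of the 16 did not overlap (1 higher and 5 lower, 37.5%), against 22.8% of the 8149 genes below this mean. At these depths the values carry large counting error. The 3 genes with values given were chosen after those values were seen.

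The list of other genes of the pathway held 83 symbols, of which 69 could be tested, and here 4 genes passed the threshold and all 4 were higher in Sox9cKO. That is 5.80% of the tested genes of the list, against 2.97% of all genes. Of the 4, Spock1 reached the minimum mean of 10 only through its Sox9cKO values, so its place in this count is no support. Sulf2 (ENSMUSG00000006800), a secreted sulfatase that removes sulfate groups from heparan sulfate at the cell surface, had 30.3, 83.5 and 25.3 reads in Control and 234, 166 and 290 in Sox9cKO. The groups were far apart, with means of 46.4 ± 32.3 and 230 ± 61.8 (SD, n = 3), a log2 difference of 2.45 (SE 0.46) and a limma adjusted p of 0.0378. With edgeR the adjusted p of Sulf2 was 0.0594. Sulf2 passed without Control replicate 2 (adjusted p 0.00875) and missed the threshold in the other 5 limma fits that left out 1 sample, where the adjusted p reached 0.155, without Control replicate 1.

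Arsg (ENSMUSG00000020604), the lysosomal arylsulfatase that helps degrade heparan sulfate, had 58.0, 60.3 and 65.7 reads in Control and 193, 177 and 233 in Sox9cKO. The spread within groups was small, and the log2 difference of 1.69 (SE 0.18, limma adjusted p 0.00554) passed in all 16 alternatives run (adjusted p up to 0.0338). Col18a1 (ENSMUSG00000001435), the heparan sulfate carrying collagen XVIII of basement membranes, had 5540, 4107 and 5159 reads in Control and 8226, 9540 and 8441 in Sox9cKO. Its groups did not overlap (log2 difference 0.83, SE 0.14, limma adjusted p 0.0287). Spock1 (ENSMUSG00000056222), the secreted proteoglycan testican, had 1 read in each Control library and 35.8, 10.4 and 13.6 normalized reads in Sox9cKO. Against a floor of 3 reads in each Control library, that is at least 6.82-fold higher (limma adjusted p 0.0321, or 0.0549 with a pseudocount of 5). Its mean over the 6 samples was 10.5 (0.974 in Control and 19.9 in Sox9cKO). It thus entered the test only because it was high in Sox9cKO, and its p-values are no support for a difference. Col18a1 and Spock1 each missed the threshold in all 6 limma fits that left out 1 sample, with adjusted p-values up to 0.0911 without Sox9cKO replicate 2 for Col18a1 and up to 0.126 without Control replicate 1 for Spock1.

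**Figure D4:**
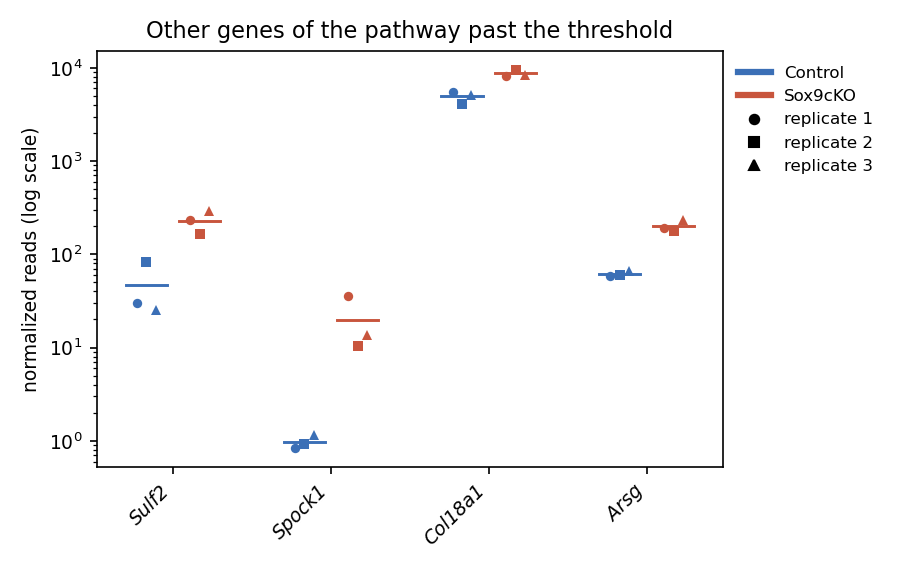
Normalized reads (log axis) in each sample of the 4 genes of the wider pathway list past the threshold, with Control in blue, Sox9cKO in red, marker shapes for replicates 1 to 3 and bars for group means. All Sox9cKO values lie above all Control values for each gene, and the Control samples of Spock1 hold 1 read each.

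With the replicate block, 13 genes of the wider list passed in the higher direction and 1 in the lower. Together these were 20.3% of the 69 tested genes of the list, against 8.05% of all genes (5.06% higher, 2.99% lower). The 13 include Spock1, whose place in the count is no support, for the reason given above. The basement membrane core Hspg2 (perlecan) had 12773, 17396 and 12576 reads in Control and 19048, 25147 and 16854 in Sox9cKO, so that the groups overlapped but each pair moved the same way (log2 difference 0.51, limma adjusted p 0.236, or 0.0307 with the block). Hspg2 did not pass in edgeR with the block (adjusted p 0.0544). Its replicates followed the order of the summed endothelial markers in both groups, as for 8.12% of all tested genes. The part of endothelial RNA in the level of Hspg2 was not tested. Hapln3, a link protein of hyaluronan and proteoglycan aggregates, had 169, 197 and 260 reads in Control and 43.8, 98.3 and 132 in Sox9cKO. All Sox9cKO values of Hapln3 were below all Control values (log2 difference -1.30, limma adjusted p 0.155, or 0.0234 with the block). Agrn, the basement membrane core agrin, passed in neither limma fit (log2 difference 0.43, adjusted p 0.177, or 0.0903 with the block). Of 16 tested genes for linker completion and nucleotide sugar or sulfate donor supply, 0 passed in either limma fit, in edgeR or in DESeq2. In the unpaired limma fit 3 of the 16 (2 higher, 1 lower) had an unadjusted p under 0.05, against 17.8% of all genes. Differences of the 16 lay between -0.42 and 0.75.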

How the data were processed

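RNA was sequenced from liver biliary epithelial cells in 3 Control and 3 Sox9cKO samples. Per the labels' protocols, total RNA was depleted of ribosomal RNA and made into stranded libraries with molecular identifiers. The submitters' processing notes name GRCm39 and DESeq2 1.36.0. The aligner, the counter and the annotation are not given in the sources used here. The authors deposited a signal, gene counts divided by a size factor per sample, as the values show: 100% were whole multiples of the value of 1 read (tolerance 0.001 reads), and the factors equalled median-of-ratios size factors. Every gene listed had at least 10 reads summed over the 6 samples. In Sox9cKO replicate 1 a read was worth 0.995, so whole reads and normalized values nearly coincide there.

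Values were tested as log2(value + 1) with limma 3.58.1 in R 4.3.3 (mean-variance trend, two-sided, Benjamini-Hochberg over all 17153 genes with a mean of at least 10, threshold 0.05). The sample titles give replicate numbers but do not say that same-numbered samples are pairs. They were treated as pairs since they deviated together across genes (r of 0.207, 0.472 and 0.542 for numbers 1, 2 and 3). The pairing was thus taken from the same values that the block then tests, and it is weakest for number 1. Also run were the test without the filter or with a minimum mean of 50, pseudocounts of 0.1 and 5, quantile and TMM normalization, edgeR 4.0.16 and DESeq2 1.42.0 on the recovered reads, the replicate block, and leaving out each sample. The scripts were tested on simulated data, where false calls made up a larger share with the block and with DESeq2 than with limma or edgeR alone, and more than the threshold in each. The simulated reads held no effect shared by same-numbered samples, so the share for the block need not hold for these data.

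Members and lists were chosen with earlier results of these data known. Genes named in full were Sox9, members passing in limma, with the block or in edgeR, the 2 most abundant members of each role, up to 8 other pathway genes passing and up to 4 more with the block. Others were named after their values were seen, and 1 gene that the rule would name is not reported here. Exon lengths and overlaps came from GENCODE M21 on GRCm38 (56 of 56 members matched) and upstream sequences from RefSeq on GRCm38.p6, whereas the table's build is GRCm39. Genes were matched by identifier or symbol and not by coordinate. The levels per kilobase thus divide values of the table by exon lengths from GRCm38. Intervals cover the spread between samples. Near-identical copies, such as Hs3st3a1 and Hs3st3b1, may share reads.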

Additional observations from a re-analysis of the deposited data

How the results depend on the processing

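The number of genes passing over the whole table, 510, was 1381 with the replicate block, 1160 with edgeR and the replicate block, 1214 with DESeq2, and 199 to 387 when 1 sample was left out. Members passing numbered 3 higher and 1 lower with the replicate block, 2 higher and 1 lower with edgeR and the replicate block, 3 higher and 1 lower with DESeq2 (the last adding Ext1 and without Chpf), and 0 to 1 higher when 1 sample was left out. In the other alternatives both counts were 0. The 4 other pathway genes became 14 with the replicate block, 7 with edgeR and the replicate block, 9 with DESeq2, and 1 to 3 when 1 sample was left out. The cause was not tested, except that fits without a sample have fewer samples. The median difference of the tested members was 0.110 to 0.445 in those fits and 0.167 with quantile normalization, which placed all genes at -0.031.

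Of the 40 tested members, 30 kept their direction in all alternatives run. The other 10 had small or widely spread differences: Bgn was 0.0295 with DESeq2 and 0.0245 with edgeR, and Chst12 was 0.0415 under quantile normalization. Fits without 1 sample gave ranges of -0.297 to 0.340 for Bgn, -0.126 to 0.190 for Chst12, -0.619 to 0.111 for Dcn, -0.130 to 0.118 for Sdc2, -0.279 to 0.887 for Sdc3, -0.341 to 0.0767 for Chst8, -0.0763 to 1.10 for Chst15, -0.00051 to 2.54 for Chst7, -0.0619 to 1.67 for Csgalnact1 and -0.287 to 0.979 for Hs3st3b1. Apart from the genes named here and in the results, the block changed no call reported for the members. Sox9 passed in all 16 alternatives.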

Other observations

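The lysosomal enzymes that degrade glycosaminoglycans had the largest share of genes past the threshold with the replicate block among the 5 other pathway lists: 7 of 17 tested, all higher in Sox9cKO (41.2%, against 5.06% of all genes in this direction), and 1 of 17 without the block, the sulfatase Arsg. Galns, a sulfatase that acts on sulfated galactose and galactosamine, had 68.1, 72.4 and 57.6 reads in Control and 118, 122 and 122 in Sox9cKO (log2 difference 0.87, SE 0.18, limma adjusted p 0.0577, with the block 0.0411). The beta-glucuronidase Gusb, the beta-galactosidase Glb1, the N-acetylglucosaminidase Naglu and the sulfamidase Sgsh had log2 differences of 0.64, 0.83, 0.69 and 0.77, and their limma adjusted p ran from 0.0749 to 0.146, or from 0.0353 to 0.0422 when the block was used. In edgeR with the block 2 of the 17 passed, and Galns, Gusb, Glb1, Naglu and Sgsh did not (adjusted p between 0.0509 and 0.0578). The replicates of Naglu followed the order of the summed endothelial markers in both groups, as for 8.12% of all tested genes. Of the exon bases of Glb1 and Sgsh, 5.49% and 21.6% are shared with another gene. For 8 of the 17 tested genes every Sox9cKO value was above every Control value, against 13.4% of all tested genes. Arsg, Galns, Gusb, Glb1, Naglu and Sgsh were among the 8. As these were named for passing a threshold, their separation is no further support. Hyal1, a lysosomal hyaluronidase, had the opposite order, with 116, 99.3 and 131 reads in Control and 80.6, 79.4 and 84.9 in Sox9cKO, and did not pass (log2 difference -0.49, limma adjusted p 0.233).

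Of 7 tested hyaluronan genes, Cemip2, a cell surface protein linked to hyaluronan breakdown, passed with the block but not in the unpaired fit of all samples (3483, 5688 and 2603 reads in Control, 6781, 7323 and 5549 in Sox9cKO, log2 difference 0.81, limma adjusted p 0.19, with the block 0.027). Cemip2 also passed in edgeR with the block (adjusted p 0.0444) and in an unpaired limma fit that left out a sample (adjusted p 0.0357). The replicates of Cemip2 followed the order of the summed endothelial markers in both groups, as for 8.12% of all tested genes. The part of endothelial RNA in its level was not tested. The hyaluronan receptor gene Cd44, listed with the core proteins, had 4321, 6709 and 8915 reads in Control and 8210, 11625 and 11107 in Sox9cKO (log2 difference 0.68, limma adjusted p 0.25, with the block 0.0326, and in edgeR with the block 0.0512). Its groups overlapped, but the Sox9cKO sample was higher within each replicate number.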
